A study of Homo sapiens with 12 samples.

Results

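The cytosolic ribosomal protein genes were examined in tumors grown from JEKO-1, a human line of mantle cell lymphoma, a B cell cancer. They were taken by symbol: names that start with RPL or RPS and a digit, RPSA and the stalk genes RPLP0 to RPLP2, without the RPS6K kinase genes, pseudogenes and antisense genes, and only where a probe set was annotated to that gene alone. This gave 77 of the 18239 genes measured: 41 proteins of the large, 60S subunit, 24 of the small, 40S subunit, the stalk proteins RPLP1 and RPLP2, and 10 paralogs, which are near copies of a ribosomal protein encoded by another gene. A further 10 genes of the rule had no probe set of their own in the annotation used and are not among the 77.

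JEKO-1 cells were xenotransplanted into CB17 SCID mice, in which B and T cells fail to develop while natural killer cells and other host cells remain, and each of 12 tumors, collected on day 18, gave RNA for 1 array. The 4 groups of 3 tumors came from mice given vehicle (control), acadesine at 400 mg/kg, rituximab at 10 mg/kg weekly, or the combination. All groups shared this 1 cell line, and 3 tumors a group limited the precision. The labels give acadesine as daily, while the methods of the study give 5 doses a week. Acadesine (AICAR) is a nucleoside that cells convert into an activator of AMPK, the kinase that senses low energy, and rituximab is an antibody against CD20, a surface protein of B cells.

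Ribosomal proteins wrap the ribosomal RNA and are made in near equal amounts, and in mammals much of their control lies in translation: most of their mRNAs open with a terminal oligopyrimidine (TOP) tract, a C followed by a run of C and T, through which LARP1 and the kinase mTOR set how many ribosomes read them. AMPK restrains mTOR. The array reads the amount of mRNA and not its translation, so it asks whether these mRNAs themselves changed with the treatments.

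The start windows of 6 members are shown because they carry the feature that defines most of the group, or lack it. They are the RefSeq sequences of the genome build GRCh38.p14, on the strand of the gene, with 10 bases before the annotated transcription start and 20 from it, and capitals mark the pyrimidine tract that opens with C at that start.
RPS6: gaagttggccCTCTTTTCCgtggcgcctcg
RPL14: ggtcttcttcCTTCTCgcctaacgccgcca
RPL35A: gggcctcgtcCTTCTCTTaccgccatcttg
RPS27: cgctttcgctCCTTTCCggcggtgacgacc
RPS27L: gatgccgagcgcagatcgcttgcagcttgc
RPL22L1: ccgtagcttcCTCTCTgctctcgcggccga
RPS6 (chr9:19380217-19380246, minus strand), the substrate of S6 kinase, opened with 9 pyrimidines. RPL14 (chr3:40457329-40457358, plus strand) opened with 6, RPL35A (chr3:197950180-197950209, plus strand) with 8 and RPS27 (chr1:153990752-153990781, plus strand) with 7. RPS27L (chr15:63157458-63157487, minus strand), the paralog of RPS27, had none at its annotated start, while RPL22L1 (chr3:170870176-170870205, minus strand), the paralog of RPL22, opened with 6.

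RefSeq start windows were given for 65 of the 77 members. A tract of at least 5 pyrimidines, opening with C at the annotated start, stood in 44 of them (67.7%), against 5.14% of all 27305 genes with a window. The tract was there in 25 of 34 60S genes, 15 of 21 40S genes and both stalk genes, but in 2 of 8 paralogs. With the start moved by up to 5 bases to either side, the share was 80.0% in the members and 25.2% in all genes. In the member tracts of 5 or more bases the median length was 8 and the longest was 19.

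**Figure D1:**
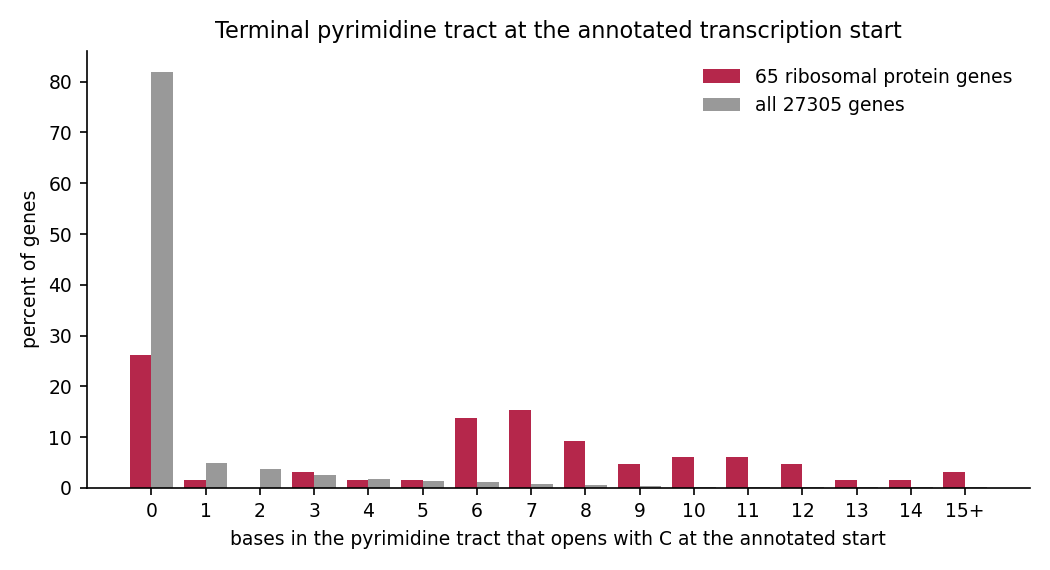
The horizontal axis gives the number of bases in the pyrimidine tract that opens with C at the annotated start (0 where the start is not C, 15+ for longer tracts), and the vertical axis the percent of genes, for 65 ribosomal protein genes (red) and all 27305 genes with a window (grey). Of all genes 82.0% had no tract, against 26.2% of the members, and the members' most common length was 7 bases, in 15.4%.

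Of other gene groups of the translation machinery, the tract at the start was found in 53.8% of 13 elongation and termination factor genes and 25.0% of 32 initiation factor genes, but in 7.35% of 68 mitochondrial ribosomal protein genes. The 300-base windows, from 250 bases before the start to 50 after it, were also searched on both strands for CCGGAAG, the core bound by ETS factors such as GABPA, and for AAGATGGC, bound by YY1. CCGGAAG was found in 35.4% of the members, 42.6% of the mitochondrial ribosomal protein genes and 12.2% of all genes. AAGATGGC was found in 10.8%, 30.9% and 3.52%. A tract that runs into GG can share letters with the reverse of CCGGAAG, and a match is a description of letters, not a bound site.

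On the authors' log2 scale, whose values ran from 3.09 to 14.3, 56 of the 77 members had a mean of at least 13 over the 12 tumors, out of 97 genes in all at that brightness (57.7%). The other members were 16 with means from 9 to 13 and 5 with means under 6, namely RPL27A and the paralogs RPL3L, RPL10L, RPS4Y1 and RPS4Y2. Brightness depends on the probes as well as on the transcript, so these values do not rank the genes by amount. Most probe sets used, 63 of 77, carry s or x in their name, which marks probes that also match related sequences, so signal of ribosomal pseudogenes and paralogs may be read with the gene. The mean log2 level of 11 B cell and mantle cell lymphoma markers lay between 9.67 and 9.92 in every tumor, although single markers were called: in the combination CD5 was lower by -1.29 against control (adjusted p = 0.00322 from limma), and SOX11 higher by 1.14 against acadesine and 1.35 against rituximab. Skeletal muscle markers differed between tumors, with a mean log2 level over 33 genes of 4.65 to 4.70 in the control tumors and of 5.04 in acadesine tumor 2, 4.98 in rituximab tumor 2, and 6.01 and 5.28 in combination tumors 2 and 3. Of the 33, LDB3, MYL11 and TNNI2 were called higher in the combination against control. The mean of 14 fibroblast markers was 4.10 to 4.44 in control, 4.14 to 4.25 after acadesine, 4.04 to 4.09 after rituximab and 4.32 to 4.45 in the combination. Of these, COL1A1 (1.46) and COL3A1 (0.70) were called higher in the combination against rituximab, and COL3A1 (0.72) also against control. The mean of 13 macrophage markers was 4.28 to 4.33 in control, 4.38 to 4.43 after acadesine, 4.291 to 4.396 after rituximab and 4.239 to 4.289 in the combination, with 0 of the 13 called in its comparisons. The fibroblast and macrophage means lay below the medians of the arrays, which were between 4.59 and 4.66. Host cells are of the mouse while the array is made for human genes, and how far the marker means read host cells was not tested. The arrays correlated with r from 0.989 to 0.996 across genes, which are not independent replicates.

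**Figure D2:**
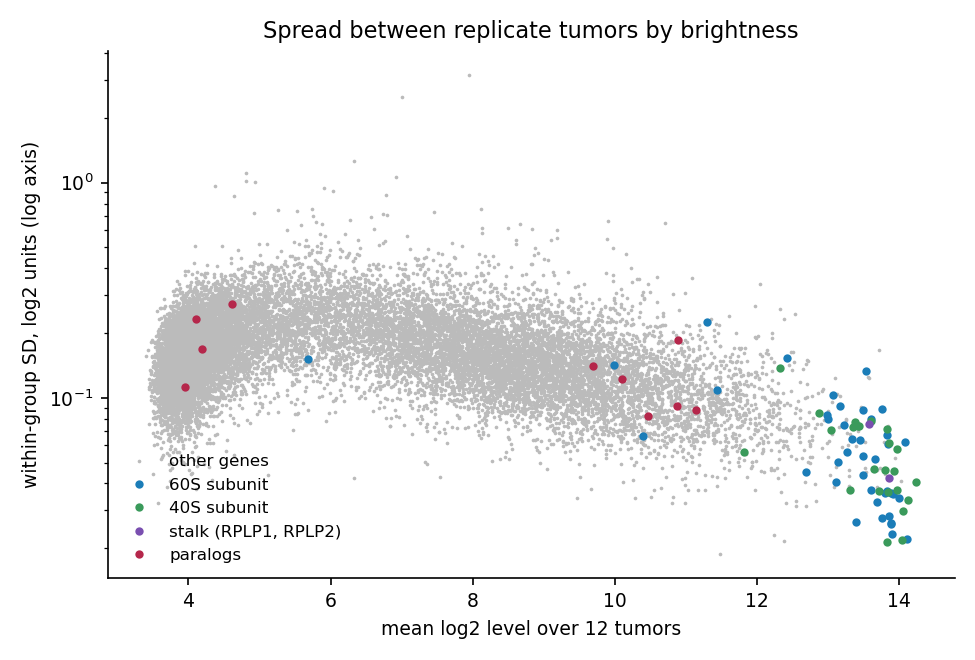
Each point is a gene, with its mean log2 level over 12 tumors on the horizontal axis and its within-group standard deviation in log2 units on the vertical, logarithmic axis; grey points are other genes and colored points the 77 members by class. The median standard deviation was 0.0625 for the members and 0.16 for all genes, with 56 members at a mean of 13 or more.

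The members varied little between tumors of a group. Their median within-group standard deviation was 0.0625 log2 units, against 0.16 over all 18239 genes. Brightness went with this difference: between means of 13 and 15 the median was 0.0465 for the 56 members and 0.0632 for the 41 other genes, between 11 and 13 it was 0.0878 for 9 members and 0.0891 for 695 others, and between 9 and 11 it was 0.1219 for 7 members and 0.1215 for 2605 others. Bright genes outside the group also had small spreads, and whether differences are compressed at the top of the scale was not tested.

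The ribosomal protein genes as a group stayed close to the control level in all 3 treatments. The median change of the 77 genes was -0.01 log2 units after acadesine, 0.00 after rituximab and 0.01 after the combination, with medians over all genes within 0.02 of 0 in all 6 comparisons. None of the 77 changed by more than 1.4-fold in any comparison, where 0.806%, 0.707% and 4.23% of all genes did so against control after acadesine, rituximab and the combination. For the combination against acadesine, against rituximab and for the interaction those shares of all genes were 4.15%, 4.23% and 6.61%. These shares were not matched for brightness, and bright genes outside the group also changed little. Between means of 13 and 15 the median size of the change, combination against control, was 0.0272 for 56 members and 0.0593 for 41 other genes. Over all genes it was 0.1141. The values are relative to the other transcripts of a tumor, because the arrays were set to a common distribution, so a change shared by all RNA would not appear. In bulk tumors, fewer cells of a type and less RNA per cell cannot be told apart.

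In single tumors the same was seen. Set against the mean of the controls, the median of the 77 genes was 0.015, 0.010 and -0.016 log2 units in the control tumors, 0.005, -0.047 and 0.013 in the acadesine tumors, -0.025, 0.010 and 0.020 in the rituximab tumors, and 0.002, -0.020 and 0.037 in the combination tumors. The groups overlapped. The lowest tumor was acadesine 2, in which 24 of 77 genes lay above the control mean, and the highest was combination 3, in which 60 did. The pooled standard deviation of these medians between tumors of a group was 0.026 log2 units.

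**Figure D3:**
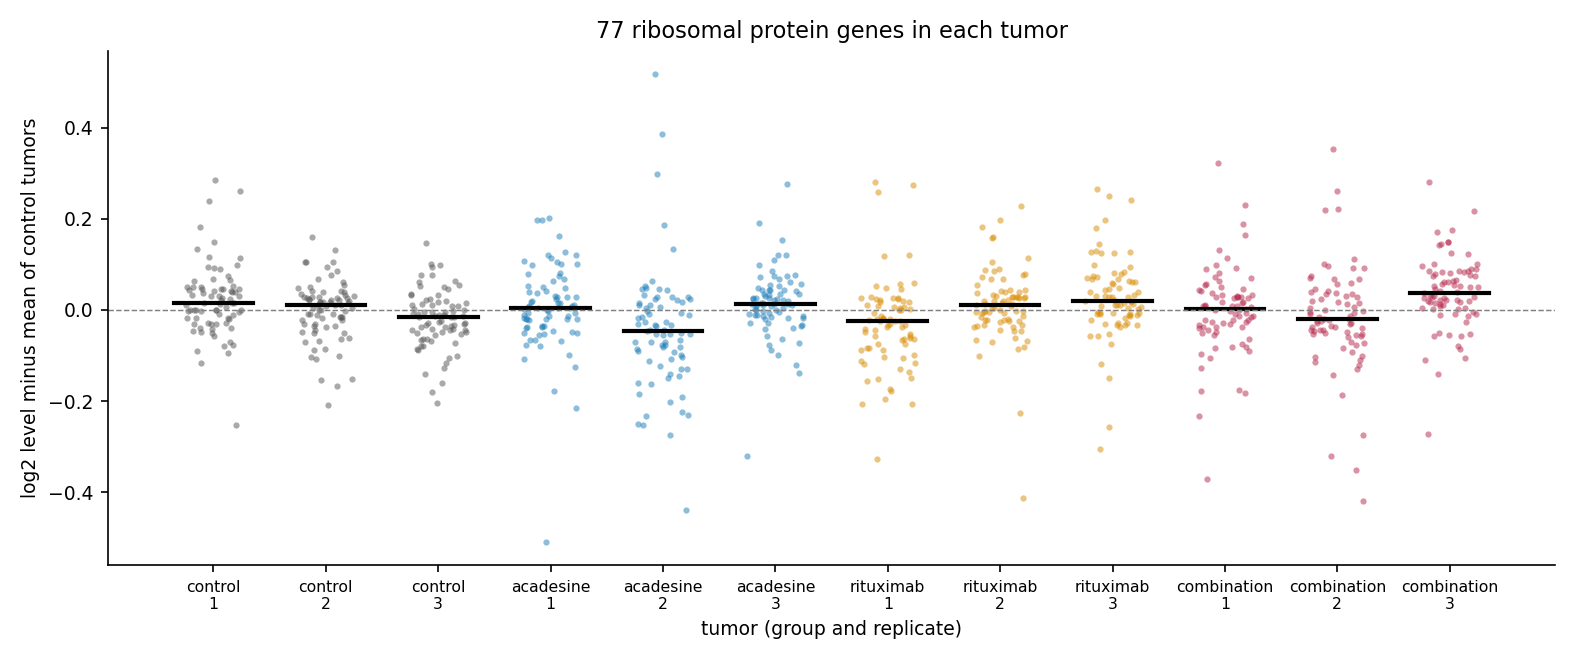
Each point is 1 of 77 ribosomal protein genes in 1 tumor, as its log2 level minus the mean of the 3 control tumors; black bars are the medians of the 77 genes. The medians lie between -0.047 (acadesine 2) and 0.037 (combination 3), and the groups overlap.

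Acadesine alone was compared with control to ask whether the AMPK-activating nucleoside moved these mRNAs. No member passed the test, which was limma's moderated test with Benjamini-Hochberg adjustment over all genes and a threshold of 0.05, and of all genes 0.0% passed. At an unadjusted p under 0.05 there were 3 members (3.9%) beside 7.8% of all genes. The groups did not overlap for 7 members (9.09%, against 12.9% of all genes), 5 of them lower and 2 higher, where 5.95% of all genes were lower and 6.91% higher. The member with the smallest p was RPS4X, a 40S protein encoded on the X chromosome. Its log2 level was 13.41, 13.55 and 13.41 in the control tumors and 13.28, 13.23 and 13.36 after acadesine. All 3 acadesine tumors lay below all 3 controls, with a difference of -0.17 (standard error 0.058, adjusted p = 0.564 from limma).

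Of the others with the smallest p, RPS23, a 40S protein at the decoding center, had a change of -0.10 (standard error 0.046), the 60S protein RPL37 of -0.16 (standard error 0.079) and RPL3L, the striated muscle form of RPL3, of 0.29 (standard error 0.116). The 3 RPL37 probe sets over a mean of 8 ran from -0.165 to -0.024, and a bright probe set shared with SNORD72 had -0.013. RPL3L was dim, at 3.77 to 3.94 in control and 4.04 to 4.23 after acadesine. The fit bounded most members tightly. For 67 of the 77 the whole 95% confidence interval of the change lay within 1.2-fold of control in either direction, as it did for 10.3% of all genes, and for 74 it lay within 1.4-fold. The median standard error was 0.0535 for the members and 0.135 for all genes, most of which were dimmer. The share was not matched for brightness.

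Rituximab alone left the members closest to control. No member passed (0.0% of all genes did), 0 of 77 had an unadjusted p under 0.05 against 4.21% of all genes, and the groups did not overlap for 1 member, the 60S protein RPL32, which was lower (1.3%, against 8.94% of all genes, 4.56% lower and 4.38% higher). RPL32 differed from control by -0.07 (standard error 0.043, adjusted p = 1.0 from limma). The other members with the smallest p were RPL35A with 0.17 (standard error 0.106), RPS23 with -0.05, RPL41 with -0.05 and RPL27A with 0.19 (standard error 0.167). The only probe set of RPL27A was dim, with a mean of 5.685. For 76 of the 77 the 95% interval lay within 1.4-fold of control and for 68 within 1.2-fold.

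The combination against control was the comparison in which 2.47% of all genes passed the test, and 0 of the 77 members did. At an unadjusted p under 0.05 there were 4 members (5.19%), against 13.9% of all genes. The groups did not overlap for 9 members (11.7%, against 18.5% of all genes), 7 higher and 2 lower, where 9.42% of all genes were higher and 9.08% lower. By class, 27 of 41 60S genes lay above 0 with a median of 0.02, 10 of 24 40S genes with a median of -0.01, both stalk genes, and 4 of 10 paralogs with a median of -0.03. Among the 10 paralogs, RPL3L, RPL10L, RPS4Y1 and RPS4Y2 were dim. For 64 of the 77 members the 95% interval lay within 1.2-fold of control, and for 74 within 1.4-fold, against 9.7% and 69.9% of all genes. Most of all genes were dimmer than the members, and these shares were not matched for brightness.

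**Figure D4:**
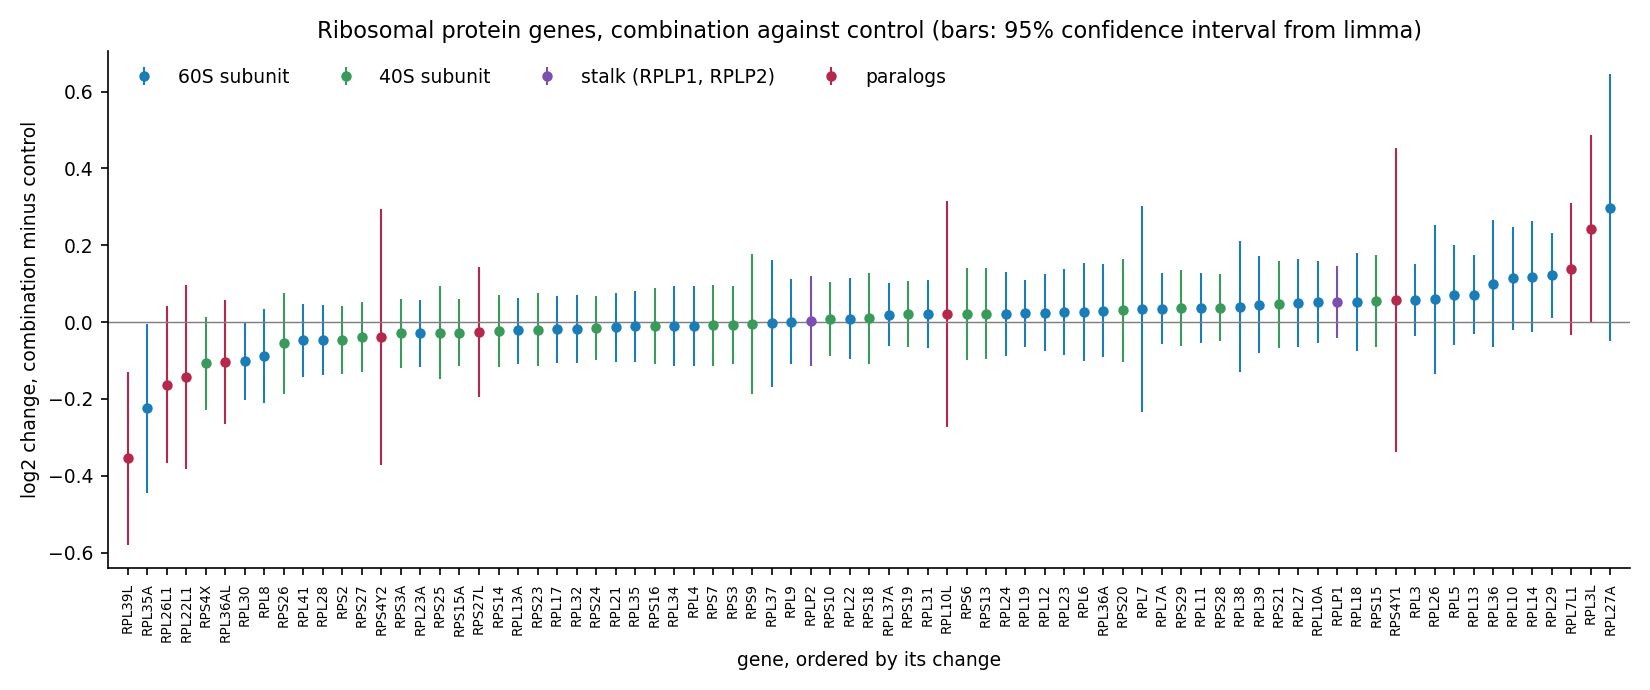
Each point is the log2 change of 1 ribosomal protein gene, combination minus control, with its 95% confidence interval from limma (n = 3 tumors a group); genes are ordered by their change and colored by class. The changes run from -0.35 (RPL39L) to 0.30 (RPL27A), 64 of the 77 lie within 0.1 of 0, and no gene passed after adjustment over all genes. The probe set of RPL27A was dim, with a mean of 5.685.

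Members with well known roles outside or at the edge of the ribosome lay near 0 in the combination. RPS6, the S6 kinase substrate, had 13.42, 13.45 and 13.42 in control and 13.46, 13.38 and 13.51 in the combination, a difference of 0.02 (standard error 0.057, n = 3 a group). RPL5 and RPL11, which bind MDM2 when ribosome assembly fails and so stabilize p53, differed by 0.07 (95% interval -0.06 to 0.20) and 0.04 (-0.05 to 0.13). RPL13A, which also represses translation of some inflammatory mRNAs, differed by -0.02, and the stalk proteins RPLP1 and RPLP2, which recruit the elongation factors, by 0.05 and 0.00. None of these passed the test, and their groups overlapped.

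RPL39L stood lowest of all members in the combination. It is the paralog of RPL39, a small protein at the exit tunnel of the large subunit, and is known from testis and from some cancers. Its log2 level was 10.05, 9.60 and 9.65 in the control tumors, 9.89, 9.95 and 9.75 after acadesine, 9.79, 9.73 and 9.74 after rituximab, and 9.39, 9.34 and 9.49 in the combination. All 3 combination tumors lay below the other 9. Against acadesine the gene was lower by a log2 change of -0.45 (standard error 0.108, limma's adjusted p = 0.028), or 1.37-fold, the 1 member of 77 that passed in that comparison, where 2.45% of all genes did. Against control the change was -0.35 (adjusted p = 0.0959) and against rituximab -0.34 (adjusted p = 0.0984), neither past the threshold. Control tumor 1 lay well above the other controls: without it the change against control was -0.21 (adjusted p = 0.409 from limma), and without control tumor 2 it was -0.44 (adjusted p = 0.0402). Against rituximab the adjusted p was 0.0421 without control tumor 1. The muscle transcripts were high in combination tumors 2 and 3 and low in tumor 1. The means of the macrophage markers did not overlap between the acadesine and combination tumors, nor did those of the fibroblast markers. Both sets of means lay below the array medians, and their part in the RPL39L change was not tested. With the muscle level as a covariate the call was lost, at a change against acadesine of -0.44 (adjusted p = 0.11 from limma). Without the 4 tumors of high muscle level, which leaves only combination tumor 1 of its group, the change was -0.43. The part of muscle transcripts in the RPL39L change was not tested further. The call was also lost without acadesine tumor 1 or 2 and without combination tumor 1 or 2, with changes from -0.45 to -0.41 and adjusted p values from 0.0948 to 0.132. RPL39 itself differed from control by 0.04 (standard error 0.061) in the combination.

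RPL35A was the 1 member that passed for the combination against rituximab, where 2.82% of all genes passed. It encodes a 60S protein needed to process the large ribosomal RNA, and is mutated in some patients with Diamond-Blackfan anemia, a failure of red cell production. Its log2 level was 10.24, 9.77 and 9.93 in control, 10.18, 10.03 and 9.99 after acadesine, 10.10, 10.18 and 10.18 after rituximab, and 9.80, 9.63 and 9.84 in the combination. The combination tumors lay below all rituximab and acadesine tumors and overlapped with control. The change was -0.40 against rituximab (standard error 0.106, adjusted p = 0.0457 from limma), or 1.32-fold lower, -0.31 against acadesine (adjusted p = 0.135) and -0.22 against control (adjusted p = 0.347). The means of the fibroblast markers did not overlap between the rituximab and combination tumors. Those of the macrophage markers parted only at 4.291 after rituximab against 4.289 in the combination. Both sets of means lay below the array medians, and their part was not tested. The other probe sets of RPL35A alone, with means of 6.62 and 3.98, had changes of -0.21 (standard error 0.152) and -0.15 (standard error 0.1505) against rituximab, and did not pass. A further probe set, annotated to both ZNF391 and RPL35A and therefore outside the rule, lay close to 0. It read 13.63, 13.58 and 13.64 after rituximab and 13.58, 13.53 and 13.60 in the combination, a change of -0.04 (standard error 0.044, and adjusted p = 0.788 over all probe sets). The RPL35A call was lost with the mean of its own probe sets, at -0.25 (adjusted p = 0.221), with the muscle level as a covariate, at -0.32 (adjusted p = 0.332), without the 4 tumors of high muscle level, at -0.34 (adjusted p = 0.816), and without any 1 of the combination or rituximab tumors or acadesine or control tumor 3, at -0.44 to -0.33 (adjusted p from 0.0524 to 0.238).

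RPL14, a 60S protein, had several probe sets that moved alike. The gene-level probe set read 13.05, 12.83 and 13.05 after acadesine and 13.13, 13.17 and 13.23 in the combination, with no overlap and a change of 0.20 (standard error 0.069, limma's adjusted p = 0.148). Against control the same probe set had 0.12. The 5 other probe sets of RPL14 over a mean of 8 had changes of 0.16 to 0.23 against control, the largest of them with an adjusted p of 0.126, so none passed, and the seventh was dim, at a mean of 3.88. Probe sets of 1 gene share their tumors and in part their sequence, and are not independent.

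**Figure D5:**
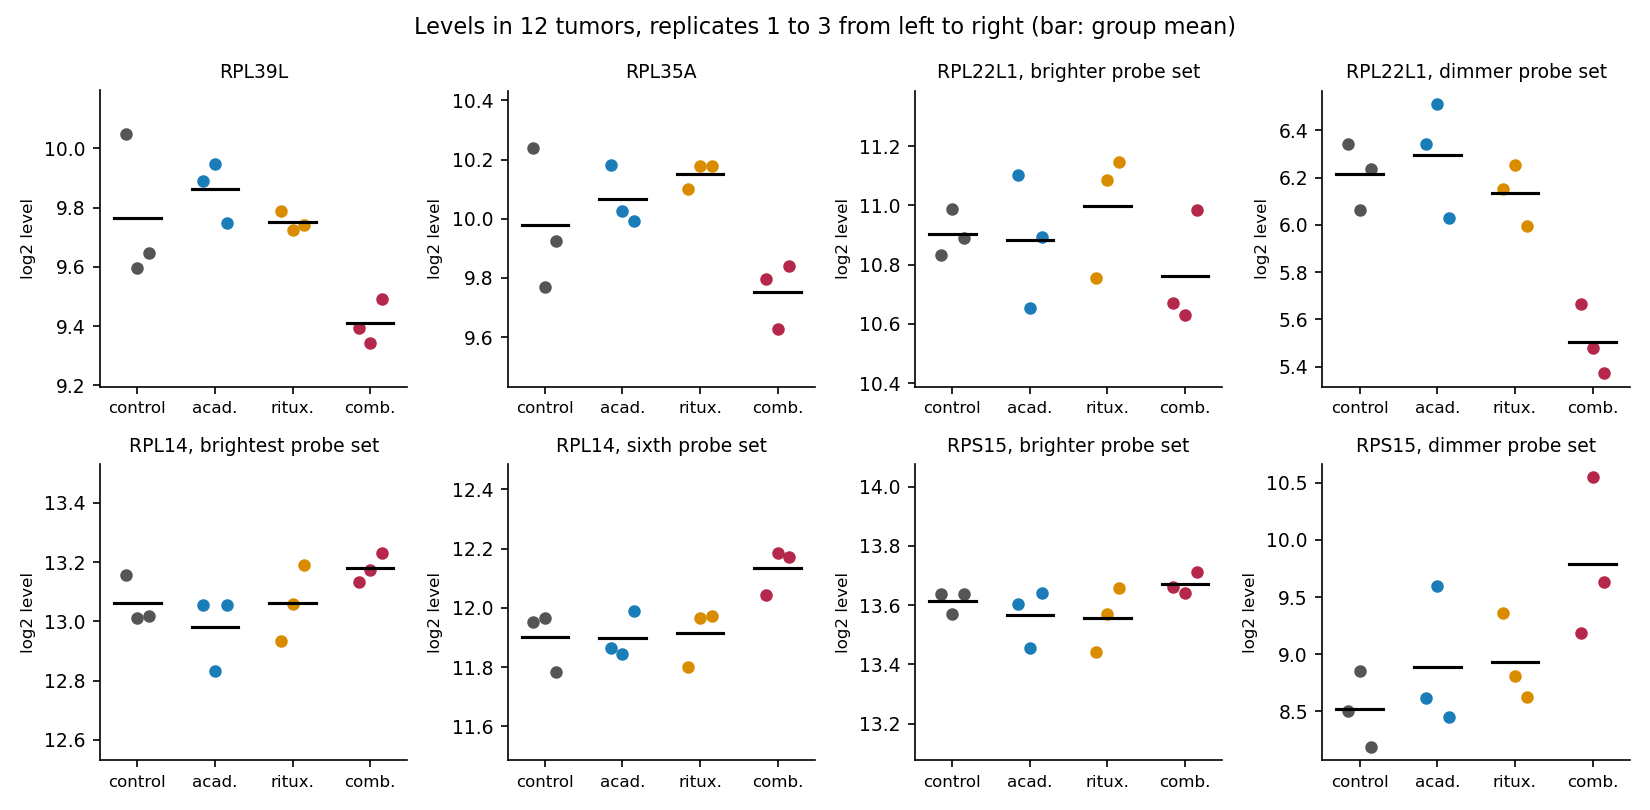
Log2 level of 8 probe sets of 5 ribosomal protein genes in 12 tumors, with replicates 1 to 3 from left to right in each group and a bar at the group mean; each vertical axis spans at least 1 log2 unit and none starts at 0. RPL39L and the dimmer RPL22L1 probe set are lowest in all 3 combination tumors, while the dimmer RPS15 probe set is highest in combination 2, at 10.55.

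Fitted over all 49293 probe sets, 2 of the 212 member probe sets passed for the combination against control, a dimmer one of RPL22L1 with -0.71 (adjusted p = 0.0339 from limma) and a dimmer one of RPS15 with 1.27 (adjusted p = 0.0206), where 1.55% of all probe sets passed. Against acadesine 2 passed as well, those of RPL39L and the same one of RPL22L1 with -0.79, where 1.41% did. The gene-level probe sets of RPL22L1 and RPS15 had -0.14 and 0.06 against control, so probe sets of 1 gene differed.

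The other members did not pass. In the combination against acadesine, 18 members did not overlap (23.4%, against 20.4% of all genes), 10 higher and 8 lower (9.65% and 10.8% of all genes). Among them the dim RPL27A had 0.33 and the 40S protein RPS26 had -0.14, neither past the test. RPL7 had 0.18 and RPL26L1 -0.19, both overlapping. In the combination against rituximab, 9 members did not overlap (11.7%, against 20.2%), 4 higher and 5 lower (10.4% and 9.8% of all genes), among them RPL3L with 0.31 (standard error 0.116, adjusted p = 0.19 from limma), RPL29 with 0.11 and RPL26L1 with -0.15, while RPL22L1, with -0.23, and RPS15, with 0.11, overlapped. Against control, RPL29, a 60S protein that also binds heparin, read 13.46, 13.29 and 13.43 in control and 13.53, 13.49 and 13.54 in the combination, a difference of 0.12 (standard error 0.054, adjusted p = 0.298 from limma). RPL30, also of the 60S subunit, differed by -0.10.

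The paralogs were taken pair by pair for the combination against control. RPL39L had -0.35 and its partner RPL39 0.04, RPL26L1 had -0.16 and RPL26 0.06, RPL22L1 had -0.14 and RPL22 0.01, and RPL36AL had -0.10 and RPL36A 0.03. RPS27L, which p53 induces, had -0.03 and RPS27 -0.04. RPL7L1, which acts in ribosome assembly, had 0.14 against 0.03, RPL3L had 0.24 against 0.06, and RPL10L, a testis form, had 0.02 against 0.11. RPS4Y1 and RPS4Y2 had 0.06 and -0.04, beside -0.11 for RPS4X. RPL3L, RPL10L, RPS4Y1 and RPS4Y2 were dim, with means of 3.96, 4.19, 4.61 and 4.10, near or below the array medians. Whether these transcripts were present at all was not tested. Of them, RPS4Y1 and RPS4Y2 lie on the Y chromosome, and the mice of the study were female. None of these 10 paralogs passed the test against control, and the difference between a paralog and its partner was not tested.

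The interaction, which is what the combination adds to or takes from the sum of both single agents, passed for 0.28% of all genes and for 0 of the 77 members, with 3 members (3.9%) at an unadjusted p under 0.05 against 10.8% of genes. The median was 0.03. The 5 members with the smallest p were RPL35A with -0.48 (standard error 0.1499, limma's adjusted p = 0.197), RPL39L with -0.44 (adjusted p = 0.256), RPS23 with 0.14, RPL14 with 0.20 and RPL36A with 0.17. For 70 of the 77 the 95% interval lay within 1.4-fold.

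Members with and without a tract at the annotated start had similar median changes. In the combination against control the 44 members with a tract at the start had a median change of 0.02, with 27 above 0, and the 21 without had 0.00, with 11 above 0. After acadesine both medians were -0.01, with 19 of 44 and 10 of 21 above 0. After rituximab the medians were 0.01 and -0.01. These are descriptions with no test.

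Of the regulators of TOP mRNAs and of S6, 23 were measured and 0 passed in any of the 6 comparisons. At most 2.82% of all genes passed in a comparison, so 0 of 23 does not set these regulators apart. LARP1, which binds the TOP tract, had -0.12 (standard error 0.075) after acadesine and 0.10 in the combination, MTOR had 0.01 and 0.12, and the S6 kinase gene RPS6KB1 had -0.11 and -0.17. MYC, a transcription factor that drives ribosome production, read 12.82, 13.04 and 12.68 in control and 12.59, 12.24 and 12.59 after acadesine. Its groups did not overlap, with a change of -0.37 (standard error 0.090, limma's adjusted p = 0.548), and in the combination against control it had -0.04. Among these regulators MYC was named after its values were seen.

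Calls among the genes that make and use ribosomes were read beside the share of all genes. None of the 77 measured ribosome assembly factors, 21 genes of RNA polymerase I and its partners, 40 initiation factors and 11 hosts of small nucleolar RNAs passed for the combination against control. Of all genes 2.47% passed there, and whether the counts of these lists differ from that share was not tested. EEF1A2, the muscle and neuron form of elongation factor 1 alpha, was the 1 call of 15 elongation and termination factors. It read 5.15, 5.73 and 5.34 in control and 6.03, 6.47 and 6.15 in the combination, a change of 0.81 (standard error 0.212, limma's adjusted p = 0.0449), and 0.88 against rituximab (adjusted p = 0.0277). The muscle level was high in combination tumors 2 and 3 and low in tumor 1, and its part in the EEF1A2 change was not tested.

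Against a single agent, 4 more genes of these lists rose in the combination. Of all genes 2.45% passed against acadesine and 2.82% against rituximab. POLR1A, the large subunit of RNA polymerase I, rose by 0.62 against acadesine (standard error 0.128, adjusted p = 0.0119 from limma), from 8.11, 8.36 and 8.31 to 8.97, 8.91 and 8.75. EIF5B, which joins the subunits, rose by 0.33 against acadesine (adjusted p = 0.0404) and 0.35 against rituximab (adjusted p = 0.0313). MDN1 and SNU13, which act in the assembly of the large subunit and of nucleolar RNA particles, rose by 0.56 (adjusted p = 0.0283) and 0.28 (adjusted p = 0.0375) against rituximab. The other measured genes of those lists did not pass in these comparisons.

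The mitochondrial ribosomal proteins, which serve the separate ribosome inside mitochondria, were read beside the cytosolic set in the combination against acadesine, where 2.45% of all genes passed. There 13 of 76 lay above 0, with a median of -0.11, beside 48 of 77 cytosolic genes with a median of 0.02, and 5 of the 76 mitochondrial genes passed, all lower, against 1 of the 77: MRPS33 with -0.38 (adjusted p = 0.0201 from limma), MRPL35 with -0.44, MRPL39 with -0.40, MRPS30 with -0.34 and MRPS11 with -0.36. MRPS30 read 9.60, 9.64 and 9.62 after acadesine and 9.22, 9.34 and 9.27 in the combination. Against rituximab MRPS30 fell by 0.40 (adjusted p = 0.02) and MRPL12 rose by 0.39 (adjusted p = 0.0404). After acadesine alone 60 of the 76 lay above the control mean with a median of 0.09, and 0 passed, and in the combination 33 did with a median of -0.02. The acadesine tumors enter both comparisons, and the difference between the 2 gene sets was not tested.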

How the data were processed

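RNA of 12 tumors was hybridized to Affymetrix HT HG-U219 arrays. The authors deposited log2 expression values made by RMA (background correction, quantile normalization between arrays, summary per probe set) and no array images were used here. Of 49386 probe sets, 93 Affymetrix controls were left out, 45253 named 1 gene in the platform annotation, and 1327 named several. For each of 18239 genes the brightest single-gene probe set, by its mean over all arrays, was taken. The members had 212 single-gene probe sets, from 1 to 9 a gene.

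All 4 groups entered 1 limma fit (version 3.58.1, R 4.3.3) whose prior variance followed the mean level, and Benjamini-Hochberg adjustment ran over all genes. Changes are differences of mean log2 levels. The Rank Products test of the study's methods was not run, but its fold limit of 1.4 was used as an alternative. The fit was tested on simulated data. Tables were handled in Python 3.11.15 with pandas 2.3.3 and numpy 2.4.6, and figures drawn with matplotlib 3.10.9. Motif and tract matches were searched in RefSeq windows for GRCh38.p14.

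The members and lists were chosen with earlier results of these data known. Genes were named by rule: the members that passed, the 4 largest rises and falls and the 5 smallest p in each comparison, the paralogs with their partners, RPS6, RPL5, RPL11, RPL13A and the stalk genes, and up to 4 called genes of each other list and comparison. MRPS11 was added, after its value was seen, to complete a count of 5, and marker genes are named only where the tumors are described. LARP1, MTOR and RPS6KB1 were named for their role. Alternatives were other probe set rules, a filter on dim genes, 2 normalizations, other variance models, array weights, the muscle level, the replicate number, fewer samples, and stricter calls. Tumors came from separate mice as far as the labels say biological replicate, and the equal replicate numbers of the groups were not described as pairs. Some genes are not reported here.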

Additional observations from a re-analysis of the deposited data

Results flagged for a closer look

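With all 49293 probe sets fitted together by limma and adjusted over all of them (a fit chosen after seeing the data), 2 of the 212 member probe sets passed for the combination against control, where 1.55% of all probe sets did, and 2 for the combination against acadesine, where 1.41% did. One of the latter was the RPL39L probe set, with an adjusted p of 0.042. The others were probe sets that the gene-level values leave out because the gene has a brighter one.

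The dimmer probe set of RPL22L1, the paralog of RPL22, read 6.34, 6.06 and 6.24 in control, 6.34, 6.51 and 6.03 after acadesine, 6.15, 6.25 and 5.996 after rituximab, and 5.67, 5.48 and 5.37 in the combination. All 3 combination tumors lay below the other 9, with changes of -0.7066 against control (standard error 0.169, adjusted p = 0.0339 from limma) and -0.7874 against acadesine (adjusted p = 0.0192). The brighter probe set had -0.14 against control and overlapped.

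The dimmer probe set of RPS15, a 40S protein, read 8.51, 8.86 and 8.19 in control, 8.62, 9.60 and 8.45 after acadesine, 9.36, 8.81 and 8.63 after rituximab, and 9.19, 10.55 and 9.63 in the combination, a change of 1.2687 against control (standard error 0.2803, adjusted p = 0.0206 from limma). Its highest values were in combination tumors 2 and 3 and acadesine tumor 2, which also had high muscle transcripts. Rituximab tumor 2 had high muscle transcripts too but read 8.81, below rituximab tumor 1 at 9.36. The part of muscle transcripts in the change was not tested. The brighter RPS15 probe set had 0.06.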

How the results depend on the processing

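The counts of members that passed were small, and each lay near the threshold. For the combination against acadesine the count of 1 became 0 with the fold limit of 1.4 beside the adjusted p, with that fold limit alone, without the intensity trend, with the muscle level as a covariate, and without the 4 tumors of high muscle level. It ranged from 0 to 1 without each tumor in turn. For the combination against rituximab the count of 1 became 0 under the same 5 settings, with cyclic loess and with the dimmest probe set of each gene, and ranged from 0 to 2 without each tumor in turn. For the combination against control the count of 0 became 2 with the mean of a gene's probe sets and 2 with the dimmest probe set, and ranged from 0 to 1. For acadesine, rituximab and the interaction it stayed at 0 without each tumor in turn. RPL39L passed against acadesine under 15 of 24 alternatives, with changes from -0.51 to -0.41, and RPL35A passed against rituximab under 10 of 24, with changes from -0.44 to -0.15. RPL39L did not pass against acadesine with the mean of a gene's probe sets (adjusted p = 0.0524 from limma) or with the dimmest probe set (adjusted p = 0.0627). The count against acadesine did not change under those settings, so it stands for another member there. The causes were not tested.

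The medians stayed within 0.05 of 0. With the dimmest probe set the median was 0.0163 after acadesine and -0.0052 for the interaction, and without the 4 tumors of high muscle level it was -0.0121 for the combination against acadesine. Without each tumor in turn it ranged from -0.0219 to 0.0073 for acadesine, -0.0119 to 0.017 for rituximab, -0.01 to 0.0201 for the combination against control, 0.002 to 0.0342 against acadesine, -0.0037 to 0.0226 against rituximab, and -0.0056 to 0.0393 for the interaction.

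The labels do not say that the replicate numbers pair the tumors. In their deviations from the group means 7 of 18 same-numbered pairs correlated above 0.1 (median 0.063), as did 4 of 36 differently numbered pairs (median -0.03). Same-numbered tumors were thus somewhat more alike, and what the numbers stand for is not given. The main fit left them out because the labels do not call them pairs. With the replicate number as a block, RPL39L had an adjusted p of 0.0272 against acadesine and RPL35A of 0.0378 against rituximab, and no count of members changed. Rank Products and the paper's FDR were not run.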

Other observations

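Of the 77 members, 47 had at least 2 probe sets with a mean of 8 or more. For the combination against control all such probe sets of a gene lay above 0 in 19 genes, all below 0 in 6, and on both sides in 22. RPS12, a 40S protein outside the rule here, was read by 2 probe sets that it shares with the small nucleolar RNA gene SNORA33 inside it, with changes of 0.02 and 0.01 in the combination against control. The 77 genes were spread over 22 chromosomes, with 9 of them on chromosome 19.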
